A study of Mus musculus with 6 samples.

Results

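In cultured mouse hepatic stellate cells, 10 genes of the TGF-beta system were followed: the 3 ligand genes Tgfb1, Tgfb2 and Tgfb3, the latency genes Ltbp1 and Ltbp2, the receptor genes Tgfbr1 and Tgfbr2, the feedback inhibitors Pmepa1 and Smad7, and the TGF-beta-induced matrix gene Tgfbi. They were taken by symbol from a table of 13341 genes. All 10 were found, and all 10 met the minimum for testing, a normalized count of at least 10 in at least 3 of the 6 libraries. Ltbp2 met it through its knock-out values alone, since it stood under that level in every wild-type library. Tgfbi also needed its knock-out values, since of the wild-type libraries only WT2 reached that level.

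Hepatic stellate cells are the pericytes of the liver sinusoid, and when activated they become the main collagen-producing myofibroblasts of the organ. Of the 6 libraries, 3 carry the genotype label wild type (WT1 to WT3) and 3 the label Nbr1 knock-out (KO1 to KO3). NBR1 is a receptor that delivers cargo to the autophagosome, and the study asks how it and its relative p62 act on the STING pathway of stellate cells in liver cancer. Both groups grew in DMEM with 10% serum for 4 days and received no other treatment. How the knock-out was made, whether the cells are a line, and how many animals they came from is not given in the labels. The p-values therefore measure the spread between these libraries.

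TGF-beta is the strongest known activator of stellate cells. Each ligand is made as a precursor whose propeptide stays folded around the growth factor and keeps it inactive, and LTBP1 ties this latent complex to the matrix until integrins or proteases free it. The freed ligand binds TGFBR2, which recruits and phosphorylates TGFBR1, and TGFBR1 in turn phosphorylates SMAD2 and SMAD3. These bind SMAD4 and act on genes that include SMAD7 and PMEPA1, which damp the pathway.

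Some facts of the whole series bear on these genes. The genes of the table summed to 1508518 to 2383879 recovered reads per library, and reads outside these genes are not included. Reads were counted at transcript 3' ends, so that a value does not grow with transcript length. When the libraries were clustered on how they departed from the mean of their label, they split in a way the labels do not give, with WT1, KO1 and KO3 in set A and WT2, WT3 and KO2 in set B. The reads of set A ranged from 1508518 to 2143285 and those of set B from 2177342 to 2383879. Nbr1 stood at 204, 278 and 289 normalized counts in WT1 to WT3 and at 204, 188 and 176 in KO1 to KO3, a log2 change of -0.43 (SE 0.18, adjusted p = 0.22). A 3' read cannot show a deletion elsewhere in the gene, so this checks no label, and the groups are named here as labelled. Sqstm1, the gene of p62, ranged from 10.9 to 24.0 in the wild-type and from 645 to 859 in the knock-out libraries. Whether the groups differ in more than Nbr1 is not given in the labels, so an effect of its loss cannot be told apart from other differences between the cells of the groups.

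Of 15 stellate cell markers, 9 were tested and 5 of them were higher in the knock-out libraries (Pdgfrb, Hand2, Lhx2, Lum and Col1a1). The 10 found summed to 7216 to 9399 normalized counts in the wild-type and 14350 to 16440 in the knock-out libraries. Lum was listed at 0 in every wild-type library. The stellate markers Lrat, Des, Reln, Hgf and Ngfr were not analysed here. No gene of a lymphocyte and neutrophil list was analysed here. Of 5 myofibroblast markers, 4 rose (Acta2, Tagln, Myl9 and Cnn1), and 2 of 3 tested smooth muscle markers rose (Lmod1 and Cnn1). Of the markers named, Lum, Tagln, Cnn1, Lmod1 and Thy1 met the minimum for testing through their knock-out values alone. Markers of other cells were low for hepatocytes (3 of 6 listed, summed 24.4 to 32.0 against 8.60 to 28.5), macrophages (3 of 7, 12.6 to 14.7 against 16.6 to 27.5) and endothelium (1 of 6, 3.36 to 5.45 against 6.02 to 8.31). Mesothelial markers summed to 363 to 414 against 196 to 235 over 4 of 5 listed, and of 3 tested only Upk3b was called, as lower. Wt1 was lower and Msln higher in every knock-out library, neither of them called (adjusted p = 0.0557 and 0.268). Krt8, not tested, was lower in every knock-out library (means 4.39 and 0.287). The cholangiocyte list, 4 of 5 found, summed to 139 to 151 against 541 to 571, of 3 tested Sox9 rising and Spp1 falling. Sox9 carried the rise of this sum, from a mean of 15.3 to 479, while Krt7, not tested, overlapped (means 7.05 and 9.60). Krt19 was lower in every knock-out library but not called (means 49.4 and 33.7, adjusted p = 0.148). Over 5 of 6 portal fibroblast markers the sums were 593 to 889 against 833 to 889.8, and of 4 tested Thy1 and Eln were called, both higher. Fbln2 was higher and Cd34 lower in every knock-out library, neither of them called (adjusted p = 0.121 and 0.186). Gli1, not tested, overlapped. The part of these other cell types in the results was not tested, and in bulk libraries fewer cells of a type cannot be told apart from less RNA per cell.

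Across all tested genes 6.92% were called, that is, had a Benjamini-Hochberg adjusted p under 0.05 in limma's test on log2(value + 1): 4.67% higher and 2.25% lower in the knock-out libraries. Against that background, 4 of the 10 TGF-beta genes were called and all 4 were higher, namely Ltbp1, Ltbp2, Tgfbi and Pmepa1. The 10 were chosen with earlier results of these data known, so this count carries no test. The median log2 change of the 10 genes was 0.56, beside -0.01 over all tested genes. The groups did not overlap for 6 of the 10 genes, 5 with higher and 1 with lower values in the knock-out libraries, beside 30.1% of all tested genes (16.5% higher and 13.6% lower). On the recovered reads, edgeR's quasi-likelihood test also called 4 of the 10 (7.27% of all genes) and DESeq2 called 5 (9.02%), Tgfb2 among them. The count of members called was 6 without WT1 and 2 without WT2, WT3, KO1, KO2 or KO3, always with Ltbp1 and Tgfbi among them. The count over all tested genes moved likewise, from 729 to 2228 without WT1 and to between 200 and 338 without another library.

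**Figure D1:**
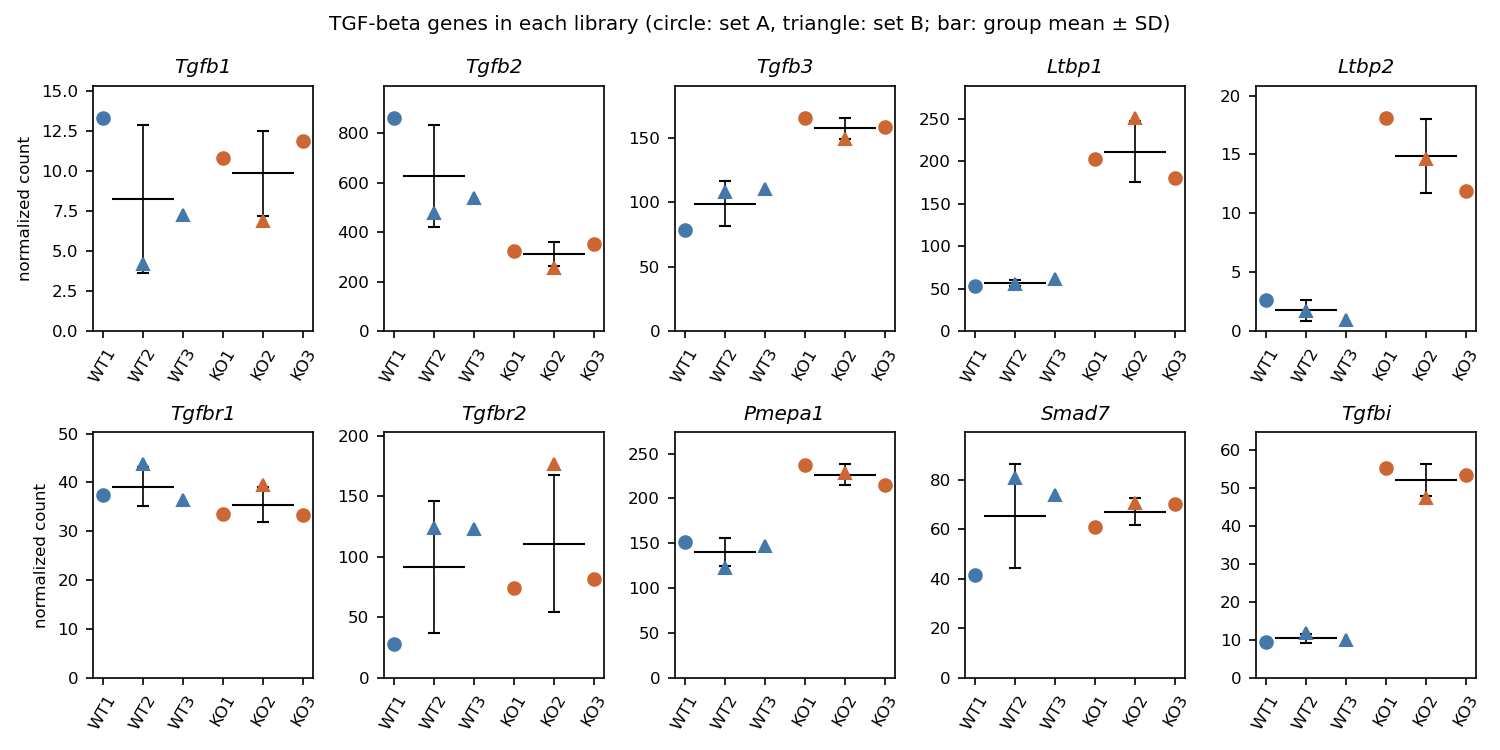
Normalized counts (vertical axes, from 0) of the 10 genes in each library (horizontal axes), with group means and SD (n = 3 each). Circles are libraries of set A and triangles of set B. Ltbp1, Ltbp2, Tgfbi, Pmepa1 and Tgfb3 were higher in all 3 knock-out libraries, Tgfb2 was lower in all 3, and the other 4 genes overlap.

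The ligand genes differed in count and in direction. Whether reads were recovered equally well from different genes was not tested, so genes are compared with each other only as counts. Tgfb2 had by far the highest values, with 862, 479.5 and 539 normalized counts in WT1 to WT3 and 326, 256 and 352 in KO1 to KO3. Every wild-type library lay above every knock-out library, and WT1 stood well above the other two. The means were 627 ± 206 and 312 ± 49.7 (SD, n = 3 each), 2.01-fold apart. The log2 change of -0.97 (SE 0.25, 95% interval -1.57 to -0.38) did not pass the threshold (adjusted p = 0.0714). Without WT1 the change was smaller but passed, at -0.72 (adjusted p = 0.0229), and DESeq2 also called it (-1.02, adjusted p = 0.0143). The difference was -1.34 within set A and -0.99 within set B, and a fit with a term for the sets gave -1.17 (adjusted p = 0.000195). That fit is no independent test, because the sets were drawn from these same libraries. It called 2791 of all tested genes, beside 729 in the main test.

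Tgfb3, the ligand most often linked to scar-limited repair, had the opposite order. It stood at 78.7, 107 and 110.0 normalized counts in WT1 to WT3 and at 165, 149 and 158 in KO1 to KO3. The groups did not overlap, and WT1 was the lowest of all 6. The means were 98.7 ± 17.3 and 157 ± 8.06 (n = 3 each), a log2 change of 0.68 (SE 0.18, 95% interval 0.24 to 1.11) that did not pass (adjusted p = 0.08). It passed without WT1 (0.53, adjusted p = 0.0367) and with a term for the sets (0.74, adjusted p = 0.00951). For Tgfb3 too, the fit with the sets is no independent test. Tgfb3 lies on chromosome 12, where the median log2 change of 358 tested genes was 0.32. With each chromosome's median removed from every library the change of Tgfb3 was 0.34 (adjusted p = 0.326).

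Tgfb1, the ligand usually named as the driver of fibrosis, was close to the limit of detection. It had 10, 5 and 8 reads in WT1 to WT3 and 12, 8 and 10 in KO1 to KO3, or 13.3, 4.20 and 7.26 against 10.9, 6.88 and 11.9 normalized counts. The groups overlapped, and a difference was not detectable at this depth (log2 change 0.32, SE 0.46, 95% interval -0.77 to 1.41, adjusted p = 0.746). The difference was -0.22 within set A and 0.26 within set B.

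The ligand mixture can be read as the share of each gene in the reads of all 3, a measure chosen after the values were seen. Tgfb2 made up 90.3% (95% exact Clopper-Pearson interval 87.9 to 92.4), 81.1% (78.0 to 83.9) and 82.2% (79.2 to 84.9) of ligand reads in WT1 to WT3. In KO1 to KO3 it made up 65.0% (60.8 to 69.0), 62.2% (57.7 to 66.6) and 67.5% (62.9 to 71.9). No interval of one group reached into the other, although such intervals cover counting error only. The share of Tgfb3 was 8.25%, 18.2% and 16.7% in the wild-type and 32.9%, 36.1% and 30.2% in the knock-out libraries. On average Tgfb2 went from 84.5% ± 5.06 to 64.9% ± 2.64 and Tgfb3 from 14.4% ± 5.36 to 33.1% ± 2.95 (SD, n = 3 each). The sum of the 3 genes was 734 ± 193 against 478 ± 58.7 normalized counts, 1.53-fold apart. For each of these shares and for the sum, an exact two-sided permutation test gave p = 0.1, the smallest that 3 against 3 libraries can give (0.133 after Benjamini-Hochberg adjustment over 8 such tests).

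**Figure D2:**
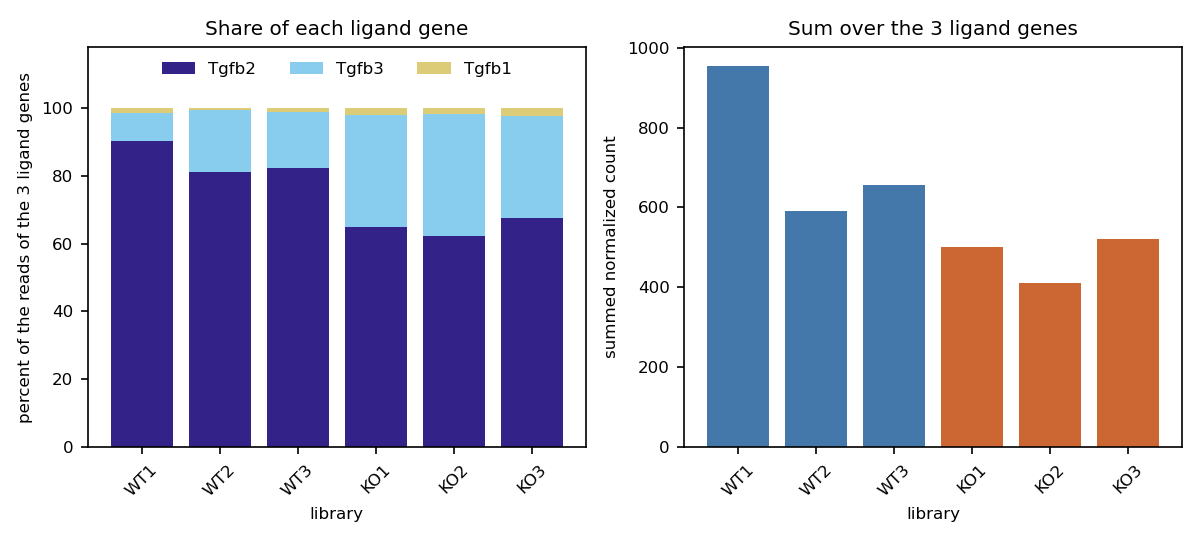
Left, the percent of the reads of the 3 ligand genes that fell to each gene (stacked bars, 1 per library). Right, the summed normalized count of the 3 genes in each library. Tgfb2 made up 81.1% to 90.3% of ligand reads in the wild-type and 62.2% to 67.5% in the knock-out libraries.

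The promoter of Tgfb2 is shown because this ligand lay lower where the called genes lay higher. It is the 250 bases before the start of transcription from RefSeq (GRCm38.p6, a build other than the GRCm39 that the submitters' processing notes name), read in the direction of the gene. Entries of RefSeq's promoter table were used for 7 of the 10 genes, and none was used for Tgfb3, Pmepa1 or Smad7. Capitals mark matches, on both strands, to the SMAD box CAGAC, the cyclic AMP response element (CRE) TGACGTCA or its core TGACG, the E-box CACGTG and the TATA box TATAAA. The AP-1 site TGANTCA, the TEAD site GGAATG and the CArG box were also searched. A full CRE holds its core on both strands.
Tgfb2, GRCm38.p6 chr1:186705990-186706239, minus strand: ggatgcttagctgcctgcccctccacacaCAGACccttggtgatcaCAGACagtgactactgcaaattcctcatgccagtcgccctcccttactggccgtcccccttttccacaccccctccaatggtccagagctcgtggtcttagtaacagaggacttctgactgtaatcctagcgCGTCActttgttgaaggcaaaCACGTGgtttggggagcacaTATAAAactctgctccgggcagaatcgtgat

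Among 32851 such windows of 250 bases, 42.2% held a SMAD box, 17.8% a CRE core, 6.02% an E-box and 12.4% a TATA box. The Tgfb2 window held 2 SMAD boxes, which begin 221 and 204 bases before the start, a CRE core at 72, an E-box at 51 and a TATA box at 31. Of the 9 windows used, which do not cover Tgfb3, Pmepa1 or Smad7, 7 held a SMAD box, those of genes not called included. It begins 160 bases before the start of Tgfbr2 and 203 before the second start of Tgfbr1. The windows of Tgfb1 and of the first Tgfbr1 start held none. These are matches of letters, not measured binding.

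The latency genes rose. Ltbp1, whose product tethers latent TGF-beta to fibrillin and fibronectin, had 53.4, 55.4 and 60.8 normalized counts in WT1 to WT3. In KO1 to KO3 it had 203, 251 and 180.4. The lowest knock-out value was well above the highest wild-type value. The mean rose 3.74-fold, from 56.5 ± 3.86 to 211 ± 36.1 (n = 3 each), a log2 change of 1.87 (SE 0.18, 95% interval 1.44 to 2.30, adjusted p = 0.00211). Ltbp1 was called in all 18 alternative fits, with log2 changes from 1.74 to 1.98, and the difference was 1.82 within set A and 2.09 within set B.

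Set against the ligands, Ltbp1 had few counts in the wild-type libraries, at 0.0559, 0.0938 and 0.0927 counts per count of summed ligand. In the knock-out libraries the ratio was 0.404, 0.610 and 0.345. These counts are of transcript ends, so the ratio needs no length correction, but equal recovery of reads from these genes was not tested. The means of 0.0808 ± 0.0215 and 0.453 ± 0.139 (n = 3 each) came from groups that did not overlap (exact permutation p = 0.1, adjusted 0.133 over the same 8 tests). As for the shares, the ratio was chosen with the values known.

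Ltbp2 encodes a relative of LTBP1 that binds elastic fibres and is not known to bind latent TGF-beta itself. It was nearly silent in the wild-type libraries, with 2, 2 and 1 reads, and had 20, 17 and 10 reads in KO1 to KO3. In normalized counts this is 2.67, 1.68 and 0.908 against 18.1, 14.6 and 11.9, without overlap. The group sums of 5 reads (95% exact Poisson interval 1.62 to 11.7) and 47 reads (34.5 to 62.5) show how little depth stands behind the change. The mean rose 8.48-fold, from 1.75 ± 0.882 to 14.9 ± 3.13 (n = 3 each), and the log2 change was 2.56 (SE 0.40, 95% interval 1.62 to 3.50, adjusted p = 0.0128). Leaving out any library except WT1 ended the call (adjusted p from 0.051 to 0.0857), while the change stayed between 2.32 and 2.70. Its size depended on how low values were treated, from 1.55 with a pseudocount of 5 to 3.15 with DESeq2, and it was called in both. Ltbp2 is on chromosome 12, as Tgfb3 is, and with chromosome medians removed its change was 2.22 (adjusted p = 0.0283).

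The promoters of both latency genes are shown because their transcripts rose together. Ltbp1 has 2 starts in RefSeq, and reads from the 3' end cannot tell which one was used.
Ltbp1, first start, GRCm38.p6 chr17:75005279-75005528, plus strand: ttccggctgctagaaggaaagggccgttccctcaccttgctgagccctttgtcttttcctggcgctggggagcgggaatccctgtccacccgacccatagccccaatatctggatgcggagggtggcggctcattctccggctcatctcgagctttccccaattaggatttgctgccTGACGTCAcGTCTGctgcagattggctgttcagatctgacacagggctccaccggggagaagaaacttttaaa
Ltbp1, second start, GRCm38.p6 chr17:75178531-75178780, plus strand: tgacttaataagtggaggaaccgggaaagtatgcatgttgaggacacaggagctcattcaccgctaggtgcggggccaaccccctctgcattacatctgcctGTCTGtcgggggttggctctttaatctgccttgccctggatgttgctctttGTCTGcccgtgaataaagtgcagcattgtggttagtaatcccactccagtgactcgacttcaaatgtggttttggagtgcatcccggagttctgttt
Ltbp2, GRCm38.p6 chr12:84876492-84876741, minus strand: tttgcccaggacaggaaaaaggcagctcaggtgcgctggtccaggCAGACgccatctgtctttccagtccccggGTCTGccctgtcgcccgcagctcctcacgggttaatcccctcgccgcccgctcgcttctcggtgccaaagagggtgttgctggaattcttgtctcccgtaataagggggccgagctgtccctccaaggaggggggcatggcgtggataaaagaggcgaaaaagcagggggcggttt

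The window before the first Ltbp1 start held a full CRE, which begins 73 bases before the start and which 1.55% of all windows hold, and a SMAD box at 64. The second held SMAD boxes at 148 and 97, and the Ltbp2 window SMAD boxes at 205 and 176. No AP-1 site, TEAD site or CArG box was found in these windows (6.75%, 12.6% and 1.47% of all windows held one).

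Neither receptor gene was called. Tgfbr1, the signalling receptor, varied little over the 6 libraries, with 37.4, 43.7 and 36.3 normalized counts in WT1 to WT3 and 33.5, 39.5 and 33.2 in KO1 to KO3. The means were 39.1 ± 3.98 and 35.4 ± 3.57 (n = 3 each). Its log2 change was -0.14 (SE 0.20, adjusted p = 0.753), and the 95% interval of -0.62 to 0.34 bounds what these data allow.

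Tgfbr2, the ligand-binding receptor, had the largest standard error of the 10 genes. It had 28.0, 123 and 123 normalized counts in WT1 to WT3 and 74.2, 176 and 81.9 in KO1 to KO3. The low libraries were those of set A and the high ones those of set B, in both groups. Over all libraries the means were 91.4 ± 54.8 and 111 ± 56.8 (n = 3 each) and the log2 change was 0.44 (SE 0.63, 95% interval -1.06 to 1.93, adjusted p = 0.75). The knock-out libraries were higher within each set, by 1.44 in set A and 0.51 in set B on the log2 scale, and with a term for the sets the change was 0.98 (adjusted p = 0.00927). Without WT1 it turned to -0.26 (adjusted p = 0.605). The sets were drawn from these same libraries, so the fit with them is no independent test.

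Of the feedback inhibitors, Pmepa1 was called and Smad7 was not. PMEPA1 is a membrane protein that binds SMAD2 and SMAD3 and keeps them from the receptor. Pmepa1 had 151, 122 and 147 normalized counts in WT1 to WT3 and 237, 228 and 215 in KO1 to KO3, with no overlap. The mean rose 1.62-fold, from 139.9 ± 15.8 to 227 ± 11.2 (n = 3 each), and the log2 change was 0.70 (SE 0.15, 95% interval 0.34 to 1.05, adjusted p = 0.0413). This call sat close to the threshold. Leaving out any library except WT1 ended it (adjusted p from 0.117 to 0.214), as did a fit without the variance trend (0.0617), while the change stayed between 0.60 and 0.77 in all alternatives.

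SMAD7 occupies the activated receptor and brings ubiquitin ligases to it, and its gene is an immediate target of SMAD signalling. Smad7 stood at 41.4, 80.6 and 73.5 normalized counts in WT1 to WT3 and at 60.6, 70.5 and 70.0 in KO1 to KO3. WT1 was the lowest, and the other 5 libraries lay close together. The means of 65.2 ± 20.9 and 67.0 ± 5.54 (n = 3 each) did not differ by more than the spread (log2 change 0.09, SE 0.28, 95% interval -0.58 to 0.76, adjusted p = 0.892). The sign turned without WT1 (-0.20, adjusted p = 0.416) and with chromosome medians removed (-0.14, adjusted p = 0.828). Whether Pmepa1 and Smad7 differ in response was tested only through their ratio, which was 3.65, 1.51 and 2 in the wild-type and 3.91, 3.23 and 3.07 in the knock-out libraries and overlapped between the groups (exact permutation p = 0.3, adjusted 0.343).

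Tgfbi encodes a secreted adhesion protein that binds collagen and integrins and takes its name from induction by TGF-beta. It had 9.34, 11.8 and 9.99 normalized counts in WT1 to WT3 and 55.2, 47.3 and 53.4 in KO1 to KO3. The values within each group were nearly equal and the groups lay far apart. Of the wild-type libraries only WT2 reached the minimum for testing, so Tgfbi was tested because of its knock-out values. The mean rose 5.02-fold, from 10.4 ± 1.25 to 52.0 ± 4.16 (n = 3 each), a log2 change of 2.22 (SE 0.22, 95% interval 1.69 to 2.76, adjusted p = 0.00258). Tgfbi was called in all 17 alternative fits in which it was tested, with log2 changes from 1.89 to 2.41. The difference was 2.42 within set A and 2.03 within set B. Its promoter is shown because Tgfbi is the TGF-beta-induced matrix gene among the members.
Tgfbi, GRCm38.p6 chr13:56609336-56609585, plus strand: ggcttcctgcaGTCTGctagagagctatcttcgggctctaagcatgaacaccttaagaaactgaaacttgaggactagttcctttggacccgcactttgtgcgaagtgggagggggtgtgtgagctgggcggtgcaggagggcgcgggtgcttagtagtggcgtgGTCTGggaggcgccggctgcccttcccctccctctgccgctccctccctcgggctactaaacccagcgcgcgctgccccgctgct

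The Tgfbi window held SMAD boxes that begin 239 and 85 bases before the start, and none of the other motifs.

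**Figure D3:**
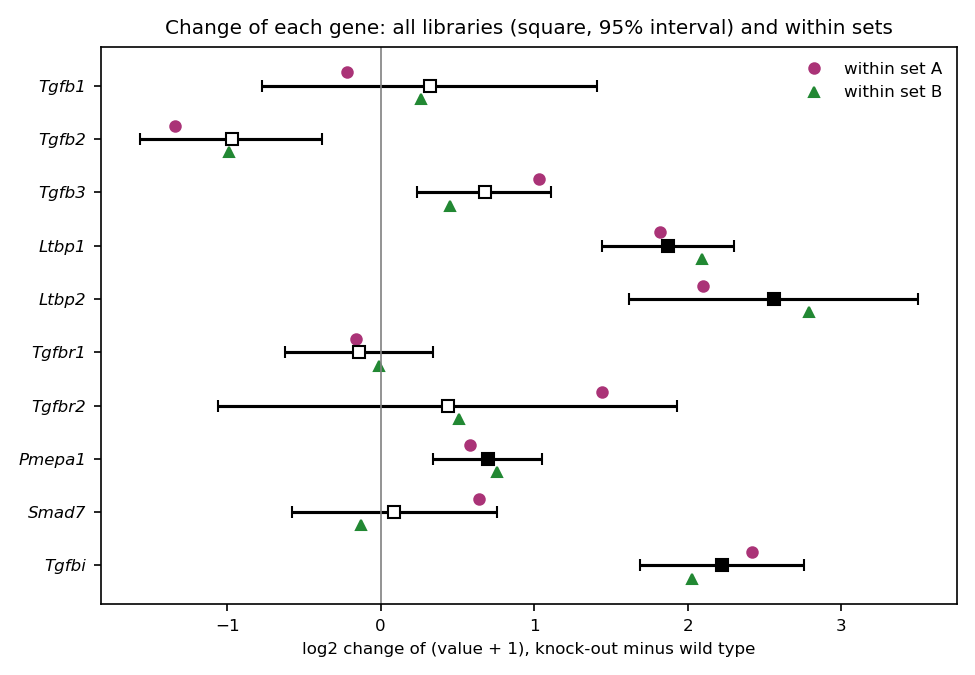
Log2 change of each gene, knock-out minus wild type, on log2(value + 1) (horizontal axis). Squares with 95% intervals are the fit over all 6 libraries, filled where the adjusted p was under 0.05. Circles and triangles are the differences within sets A and B, which lay on the same side of 0 for every gene but Tgfb1 and Smad7.

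The 10 genes thus differed in whether the label or the library set went with their variation. For each gene the sum of squares of its log2 values over the 6 libraries was divided into a part for the label, a part for the set after the label, and the rest. The label held 99.0% for Tgfbi, 97.5% for Ltbp1, 94.2% for Ltbp2 and 91.7% for Pmepa1, with at most 1.6% for the set. For Tgfb3 and Tgfb2 the label held 82.0% and 73.4% and the set 4.7% and 23.3%. For Tgfbr2 the order was reversed, with 6.9% for the label and 85.9% for the set, as it was for Tgfb1 (10.2% and 69.5%) and Smad7 (2.3% and 57.8%). Tgfbr1 had 27.4% and 33.9%. These shares describe these libraries and carry no test.

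**Figure D4:**
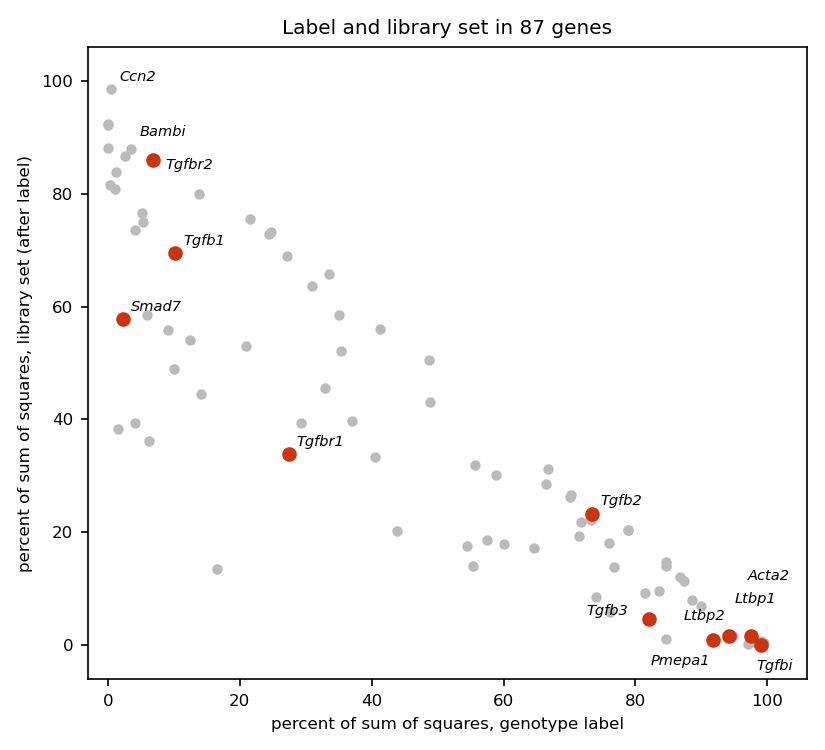
Percent of the sum of squares of log2(value + 1) that went with the genotype label (horizontal) and, after it, with the library set (vertical), for the 10 genes (red) and the tested genes of the wider pathway (grey), 87 in all. Tgfbi, Ltbp1, Ltbp2 and Pmepa1 sit at the lower right beside Acta2, and Tgfbr2 sits at the upper left near Ccn2 and Bambi.

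The wider pathway was described with 89 other genes in 5 lists by role, of which 77 were tested. Of these, 11 rose and 2 fell, or 16.9% called beside 6.92% of all tested genes, and their median log2 change was 0.37. The lists were chosen with earlier results of these data known, so their shares are descriptions and carry no test. Genes of latency and activation had 1 of 17 higher and 0 lower by limma (5.88% called, beside 6.92% of all tested genes). The counts were the same by edgeR, and 2 higher and 1 lower by DESeq2. In limma's test 8 of the 17 had an unadjusted p under 0.05, a level whose share over all tested genes was not counted. The gene limma called was Itgb5, an integrin subunit that can pull on latent TGF-beta. It went from 69.4, 55.4 and 44.5 to 132, 114 and 133 normalized counts (log2 change 1.17, adjusted p = 0.0216). Its partner Itgav lay at 578, 359 and 335 against 218, 185 and 252, lower in every knock-out library but not called (log2 change -0.92, adjusted p = 0.0757). The proteoglycan genes Dcn and Bgn, whose products bind TGF-beta, had log2 changes of 0.59 and 1.12 (adjusted p = 0.0802 and 0.0951). Among the other latency genes, Ltbp3 had a log2 change of 0.51 (adjusted p = 0.139) and Ltbp4 one of 0.05 (0.928).

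Of 6 tested receptor and coreceptor genes, 0 were called by limma (beside 6.92% of all tested genes), by edgeR or by DESeq2. None reached an unadjusted p under 0.05 in limma's test (0 of 6), a level whose share over all tested genes was not counted. The coreceptor genes Eng and Tgfbr3 had log2 changes of -0.63 (adjusted p = 0.329) and 0.67 (0.376), Tgfbrap1 one of 0.56 (0.461) and Cd109 one of -0.17 (0.816). Among 7 SMAD and carrier genes, 1 rose and 1 fell (28.6% called, beside 6.92% of all tested genes). Smad4, the shared partner of the receptor SMADs, rose 1.76-fold, from 289.5, 288 and 277 to 479.8, 538 and 490.1 normalized counts (log2 change 0.82, adjusted p = 0.0112). Trim33, which encodes a ubiquitin ligase that acts on SMAD4, had 113, 142 and 154 against 65.2, 79.9 and 75.9 (log2 change -0.87, adjusted p = 0.0403). The signal carriers Smad2 and Smad3 had log2 changes of 0.79 (adjusted p = 0.119) and -0.01 (0.983). Smad4, Smad2 and Smad7 share chromosome 18, where the median log2 change of 266 tested genes was 0.37, and with chromosome medians removed Smad4 was at 0.58 (adjusted p = 0.051) and Trim33 at -0.46 (0.174).

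Of 16 inhibitor and feedback genes, limma called 1, the phosphatase gene Ppm1a (6.25%, beside 6.92% of all tested genes), while edgeR called 1 and DESeq2 3, all higher. It rose from 224, 181 and 171 to 367, 281 and 335 normalized counts (log2 change 0.77, adjusted p = 0.048, or 0.342 with chromosome medians removed). The ubiquitin ligase genes Wwp2 and Nedd4l had log2 changes of 0.81 and 1.29 (adjusted p = 0.0627 and 0.0757), and the deubiquitinase gene Usp15 one of -0.60 (0.0756). Skil, a SMAD co-repressor gene and rapid SMAD target, had a log2 change of -0.16 (adjusted p = 0.803). The median of this list was 0.02.

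Of 31 tested response genes, 8 rose and 1 fell (29.0% called, beside 6.92% of all tested genes), and their median log2 change was 0.38. This list too was chosen with earlier results known, so the share carries no test. Postn and Tagln, counted among the 8, met the minimum for testing through their knock-out values alone. Besides the matrix and contractile genes Postn, Acta2, Tagln, Col1a1, Col1a2 and Lox, these were Tgfb1i1, Timp1 and, falling, Spp1. Acta2, the smooth muscle actin gene that marks myofibroblasts, rose 5.3-fold, from 183, 165 and 172 to 998, 834 and 930.3 normalized counts (log2 change 2.40, adjusted p = 0.000337). Postn, which encodes the matrix protein periostin, stood at 1.33, 1.68 and 2.72 against 136, 201 and 132 (log2 change 5.76, adjusted p = 0.000337). Tgfb1i1 encodes the focal adhesion protein HIC-5, and it rose 3.65-fold, from 18.7, 28.6 and 29.96 to 90.5, 89.4 and 102 normalized counts (log2 change 1.86, adjusted p = 0.00647). Timp1, a protease inhibitor gene, rose 1.78-fold (log2 change 0.83, adjusted p = 0.0168). Spp1, the osteopontin gene, fell from 78.7, 69.7 and 75.4 to 29.0, 27.5 and 33.2 (log2 change -1.29, adjusted p = 0.0101). Fn1, the fibronectin gene, overlapped between the groups, its knock-out mean being 0.953 times the wild-type mean (log2 change -0.07, adjusted p = 0.777).

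How far these calls hold differed by gene. Postn, Acta2, Tagln and Col1a1 were called with any 1 library left out. Tgfb1i1 lost its call without KO1 or KO3, Spp1 without WT3 or KO1, and Lox without WT2, WT3, KO1 or KO3 (adjusted p up to 0.0516, 0.0749 and 0.111). Itgb5, Smad4, Trim33, Ppm1a, Col1a2 and Timp1 kept theirs only when the library left out was WT1 (adjusted p otherwise up to 0.131, 0.0772, 0.198, 0.229, 0.138 and 0.12). Itgb5 and Lox also lost their calls with chromosome medians removed (log2 change 0.74 and 0.93, adjusted p = 0.119 and 0.0878).

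**Figure D5:**
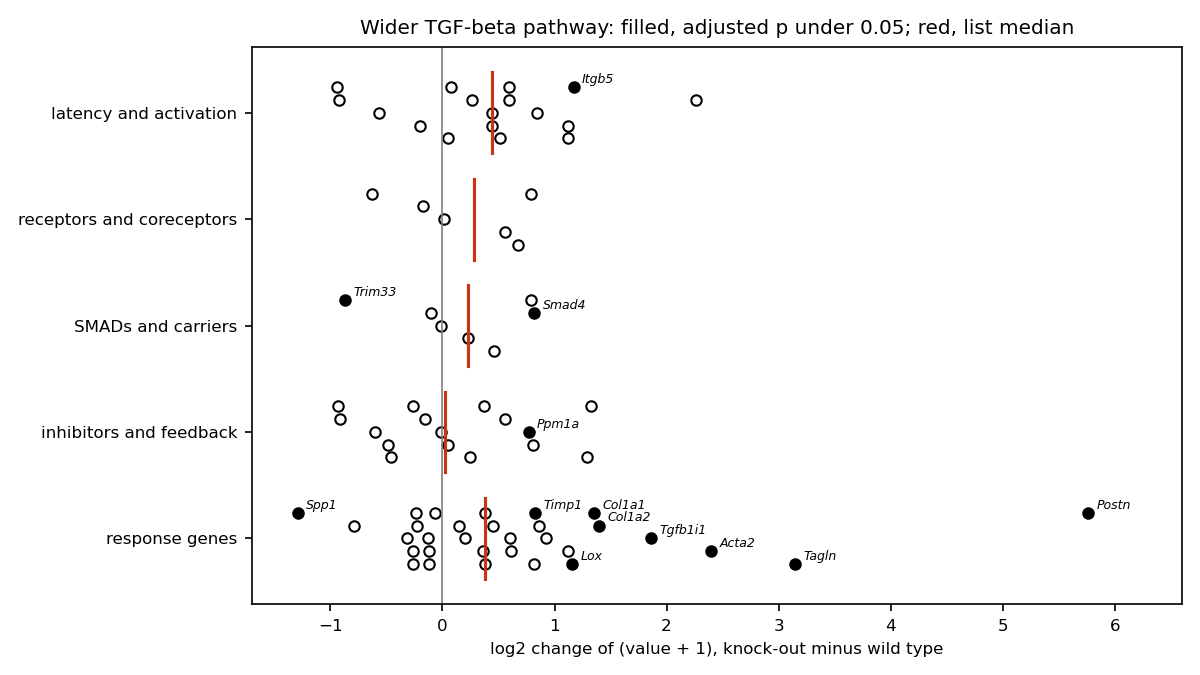
Log2 change, knock-out minus wild type, of the 77 tested genes of the wider pathway by list (rows). Filled circles had an adjusted p under 0.05 and are named, and red lines are list medians, which range from 0.02 for inhibitors to 0.44 for latency and activation.

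Across the 6 libraries the called members varied together with many genes. Pearson's r of log2(value + 1) was 0.98 between Ltbp1 and Tgfbi, 0.95 between Ltbp1 and Pmepa1 and -0.90 between Ltbp1 and Tgfb2, while Tgfbr2 and Smad7 reached 0.91. All points share 6 libraries and 2 groups, so these values hold the group difference and the sets and carry no test. The genes closest in pattern among 10180 compared were Cxcl12 and Dact1 for Ltbp1 (r = 0.9997 and 0.9988), Jkamp and Plcl1 for Ltbp2 (0.9961 and 0.9958), Car13 and Ckb for Pmepa1 (0.9968 and 0.9960), and Uty and Trf for Tgfbi (0.9985 and 0.9974). Between 234 and 392 genes reached r = 0.95 with each of these members. Uty is on the Y chromosome and had 0, 1 and 0 reads in WT1 to WT3 and 45, 33 and 28 in KO1 to KO3. The other Y-linked genes Ddx3y and Kdm5d, looked at for this reason, overlapped between the groups (means 161 ± 22.6 and 193 ± 19.2, and 38.3 ± 5.08 and 39.8 ± 3.63, n = 3 each).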

How the data were processed

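Cultured mouse hepatic stellate cells were profiled from 200 ng of RNA with a 3' end QuantSeq kit and single reads of 75 nt, per the labels' protocols. The submitters' processing notes name DESeq2 and GRCm39; the aligner, the annotation, whether counting used strand, and whether the kit's optional molecular identifiers were used are not given in the sources used here. What the authors deposited is a signal of normalized counts, 1 column per library. Each column was the read count divided by the DESeq2 size factor of its library, since every value (100%) was a whole multiple of 1 read within 0.01 and recomputed factors matched; reads were recovered from it. No gene had fewer than 9 reads in all.

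From these values, genes at 10 or more in at least 3 libraries (10540) were compared on log2(value + 1) by limma's trended moderated test (limma 3.58.1, R 4.3.3). It was two-sided, the label was its sole term, and Benjamini-Hochberg adjusted p under 0.05 over all tested genes was called. Fold changes are ratios of mean normalized counts, while log2 changes are on the log2(value + 1) scale, which understates low genes. The limma steps were tried on simulated counts with the same dispersion for all genes and no library sets. Changes were placed only in genes well above the minimum for testing, so this does not check low genes or the sets. The recovered reads were also fitted with edgeR 4.0.16 (quasi-likelihood) and DESeq2 1.42.0, which called 766 and 951 genes beside 729 by limma. Other alternatives were pseudocounts of 0.5 and 5, other filters and scalings, no trend, a block for the replicate number, and leaving out single libraries. A term for the library sets and removal of chromosome medians were added after seeing the data; for the latter 98.7% of tested genes had a chromosome in RefSeq. Intervals on reads cover counting error only.

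The members and lists were chosen with earlier results of these data known. Named are the 10 members, Nbr1 and Sqstm1, of each wider list up to 4 genes with the smallest p and those needed for a count of 5 or fewer, and the 2 genes closest in pattern to each called member. Ltbp3, Ltbp4, Smad3, Skil, Fn1, Ddx3y, Kdm5d and the remaining called response genes were named after their values were seen.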

Additional observations from a re-analysis of the deposited data

How the results depend on the processing

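The count of called members, 4 in the main test, was within 1.5 times of that in most alternatives. It was 2 with a minimum mean of 50, where only 6 members were tested, 7 with a term for the library sets, and 2 to 6 with 1 library left out. All tested genes called numbered 729 in the main test, 380 with a minimum mean of 50 (6885 tested), 2791 with the set term, and 200 to 2228 with 1 library left out, the highest without WT1. The wider pathway had 13 calls in the main test, 41 with the set term and 4 to 35 with 1 library left out. Among the members, signs turned only for Tgfb1, Tgfbr2 and Smad7, none of them called. With 1 library left out the log2 change was -0.03 to 0.70 for Tgfb1 (lowest without WT2), -0.26 to 0.79 for Tgfbr2 and -0.20 to 0.27 for Smad7 (both lowest without WT1), and with chromosome medians removed Smad7 was at -0.14. The cause was not tested.

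With the replicate number as a block, 476 of all tested genes, 3 members and 10 wider pathway genes were called; of the members Pmepa1 lost its call (adjusted p = 0.103). Libraries of the same number deviated from their group means with r = 0.446, 0.700 and -0.624, so they did not deviate alike for every number. Whether the numbers pair the libraries is not given in the labels, and these values cannot show it, since they also hold the library sets. Depth limits Tgfb1, with 23 and 30 reads per group, and Ltbp2.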

Other observations

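Several pathway genes followed the library sets far more than the label, and they were picked after their values were seen. Ccn2, a matrix gene that answers TGF-beta and YAP, had 2.67, 81.5 and 65.4 normalized counts in WT1 to WT3 and 8.15, 121 and 9.49 in KO1 to KO3. The low libraries were those of set A in both groups, as for Tgfbr2. Bambi, which encodes a decoy receptor, had 0, 28.6 and 22.7 against 11.8, 82.5 and 2.37, and Acvr1, a receptor gene of the family, had 1.33, 70.5 and 82.6 against 20.8, 93.7 and 5.93. Bhlhe40, a repressor gene, had 6.67, 73.9 and 74.5 against 31.7, 61.0 and 15.4. The set held 98.5% of the sum of squares of Ccn2, 88% of Bambi, 88.1% of Acvr1 and 81.5% of Bhlhe40 after the label, which held at most 3.5%. None of these genes was called between the labels in the fit over all libraries (adjusted p from 0.83 to 0.997). With a term for the sets, chosen after seeing the data, Ccn2 was at a log2 change of 1.07 (adjusted p = 0.0166) in place of -0.26, and Bambi at 2.19 (0.0149) in place of 0.79. Within sets A and B the differences were 1.42 and 0.72 for Ccn2 and 2.71 and 1.66 for Bambi. Acvr1 and Bhlhe40 did not pass with that term (adjusted p = 0.0901 and 0.27).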
